A study of Mus musculus with 12 samples.

Results

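The 9 genes described here are *Sox9*, *Sox8*, *Gata4*, *Wt1*, *Dmrt1*, *Ptgds*, *Clu*, *Cldn11* and *Aard*, which mark the identity of the Sertoli cell in the embryonic testis. They were chosen by their symbols, as genes known for this cell, but with earlier results of these data known. All 9 had a row among the 35976 gene symbols counted in every library. RNA was sequenced from 12 pools of testes of outbred Swiss (RjOrl) mouse embryos at E15.5, each made of tissue from 3 embryos. In F1, 3 control pools came from mothers given olive oil by gavage from E6.5 to E15.5, and 3 *thia* pools came from mothers given the neonicotinoid insecticide thiacloprid (*thia*) in that oil at 6 mg/kg/day. In F3, 3 control and 3 *thia* pools came from embryos that were not dosed themselves and descended from these lines through the males, each generation being bred with unrelated untreated females. The study asked whether exposure of a pregnant ancestor alters the testis of later generations. All 4 groups share the strain and the stage, and which litters went into a pool is not given per sample, so p-values measure the spread between these pools.

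Sertoli cells are the supporting cells of the seminiferous cord. In the XY gonad they are the first cells to take a male fate, when the Y-linked factor SRY and the orphan receptor NR5A1 switch on *Sox9*, and SOX9 then keeps its own gene active together with SOX8, prostaglandin D2 and FGF9. Once established they enclose the germ cells, secrete anti-Müllerian hormone, which removes the female duct, and send the hedgehog signal DHH that leads to the fetal Leydig cell. WT1 and GATA4 act before and during this step, DMRT1 holds the male fate in later life, and the tight junction protein claudin 11 is part of the barrier that adult Sertoli cells build around germ cells. GATA4, WT1 and DMRT1 are not limited to Sertoli cells: interstitial and surface cells of the gonad also make GATA4 and WT1, and fetal germ cells also make DMRT1.

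The genes lie on 7 chromosomes of the mm10 build. By GENCODE M21, *Sox9* spans chr11:112782224-112787760 on the plus strand, *Sox8* chr17:25565892-25570686 on the minus strand, *Gata4* chr14:63198922-63271692 on the minus strand and *Wt1* chr2:105126529-105173616 on the plus strand. *Dmrt1* spans chr19:25505618-25604329, *Cldn11* chr3:31149920-31164324, *Clu* chr14:65968483-65981547 and *Aard* chr15:52040107-52045722, each on the plus strand, and *Ptgds* spans chr2:25466709-25470046 on the minus strand. All 9 are protein coding. An antisense gene, *2810468N07Rik*, overlaps exons of *Sox8* on the other strand and has its own row of at most 570 counts per library. The libraries were strand-specific, but the strand setting of the counting is not stated, so the *Sox8* and antisense counts could share reads.

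The RefSeq promoter table for GRCm38.p6, the same assembly as mm10, held an entry for 3 of the 9 genes, *Sox8*, *Ptgds* and *Cldn11*, and these are shown. *Sox8* and *Ptgds* varied together across the F3 pools while *Cldn11* did not vary with them. Each line gives the 250 bases before the RefSeq start of transcription, read 5′ to 3′ on the strand of the gene, at chr17:25570687-25570936, chr2:25469750-25469999 and chr3:31149670-31149919 in this order. Capitals mark the CpG dinucleotides, the sites at which mammalian DNA is methylated.
Sox8: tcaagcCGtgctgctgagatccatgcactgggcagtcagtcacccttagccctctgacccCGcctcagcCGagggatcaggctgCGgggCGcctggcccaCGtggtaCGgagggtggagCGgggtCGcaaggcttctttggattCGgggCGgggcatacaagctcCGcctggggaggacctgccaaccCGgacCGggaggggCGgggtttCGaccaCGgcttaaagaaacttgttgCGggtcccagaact
Ptgds: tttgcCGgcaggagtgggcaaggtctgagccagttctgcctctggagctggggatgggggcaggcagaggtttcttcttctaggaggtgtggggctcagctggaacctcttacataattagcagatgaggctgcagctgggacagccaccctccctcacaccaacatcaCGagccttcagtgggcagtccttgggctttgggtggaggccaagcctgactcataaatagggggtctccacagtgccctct
Cldn11: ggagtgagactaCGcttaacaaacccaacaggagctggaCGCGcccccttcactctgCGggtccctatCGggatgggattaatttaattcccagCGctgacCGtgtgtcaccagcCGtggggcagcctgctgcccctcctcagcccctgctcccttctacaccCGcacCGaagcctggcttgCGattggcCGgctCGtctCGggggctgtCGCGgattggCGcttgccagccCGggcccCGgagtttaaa
The windows of *Sox8* and *Cldn11* held 18 and 19 CpG and 65.6% and 63.6% GC, against medians of 6 CpG and 52.4% GC over the 32851 promoter windows of the table. That of *Ptgds* held 2 CpG at 58.4% GC. On this measure *Sox8* is like *Cldn11* and unlike *Ptgds*, whereas the log2 CPM of *Sox8* and *Ptgds* had a Pearson's r of 0.93 over the 6 F3 pools and of 0.03 over the 6 F1 pools. The letters AACAAT and ACAAAG of SOX sites, AGATAA of GATA sites and ACATTGT of DMRT sites, searched on both strands with overlaps allowed, were in none of these windows. They occurred in 9.42%, 16.5%, 9.99% and 2.56% of all windows, and one SOX motif or the other in 24.0%. No window is shown for *Sox9*, *Gata4*, *Wt1*, *Dmrt1*, *Clu* and *Aard*.

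Each library held between 25081647 and 68996146 counts assigned to genes, and the 9 genes had between 441 counts, for *Sox9*, and 66677 counts, for *Clu*, in a library. Levels are given as CPM, counts relative to the TMM-scaled size of each of the 12 libraries, and in bulk tissue fewer cells of a type and less RNA per cell cannot be told apart. Y-linked RNA was present in all pools, with *Ddx3y* of the Y chromosome between 77.8 and 136 CPM and *Xist*, the RNA of the silent X chromosome, at most 1.52 CPM. One pool stood apart from its replicates. Over genes, the chi-square per degree of freedom between replicates was 17.3 to 42.2 in the F1 groups, the F3 controls and between replicates 1 and 3 of F3 *thia*, and 90.7 and 101 when F3 *thia* replicate 2 was one of the pair. Results in F3 are therefore given with and without that pool. Blood genes also differed between pools. The summed CPM of the erythroid markers *Hba-a1*, *Hbb-bt*, *Alas2* and *Slc4a1* was 2037 to 8248 in F1 and 19438 to 39178 in F3, and F3 *thia* replicate 2 had the highest value.

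Per kilobase of exon, the scale on which genes can be compared, *Clu* and *Aard* were the most abundant of the 9 in the F1 controls, at 228 ± 22.3 and 213 ± 4.04 CPM per kb (SD, n = 3). The ranges of these 2 genes overlapped. *Ptgds* at 67.6 ± 6.23 and *Gata4* at 62.0 ± 2.79 followed, again with overlapping ranges, then *Wt1* at 26.8 ± 1.97 and *Dmrt1* at 18.5 ± 0.761, each apart from its neighbours. *Sox8*, *Sox9* and *Cldn11* were lowest, with means between 10.8 and 12.3 CPM per kb that could not be separated by their ranges. In the F3 controls the same pair led in the other order, again with overlapping ranges. *Aard* had 171 ± 30.5 and *Clu* 110 ± 30.6 CPM per kb, then *Gata4* 35.4 ± 4.14, *Wt1* 30.0 ± 1.98 and *Ptgds* 22.7 ± 5.22. *Cldn11* at 11.2 ± 2.00 and *Dmrt1* at 8.81 ± 2.27 CPM per kb followed, with overlapping ranges of 9.16 to 13.1 and 6.23 to 10.5, then *Sox8* at 6.20 ± 1.04 and *Sox9* at 3.84 ± 0.741. The ranges of *Wt1* and *Ptgds* and of *Dmrt1* and *Sox8* overlapped as well, and those of *Sox8* and *Sox9* did not.

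**Figure D1:**
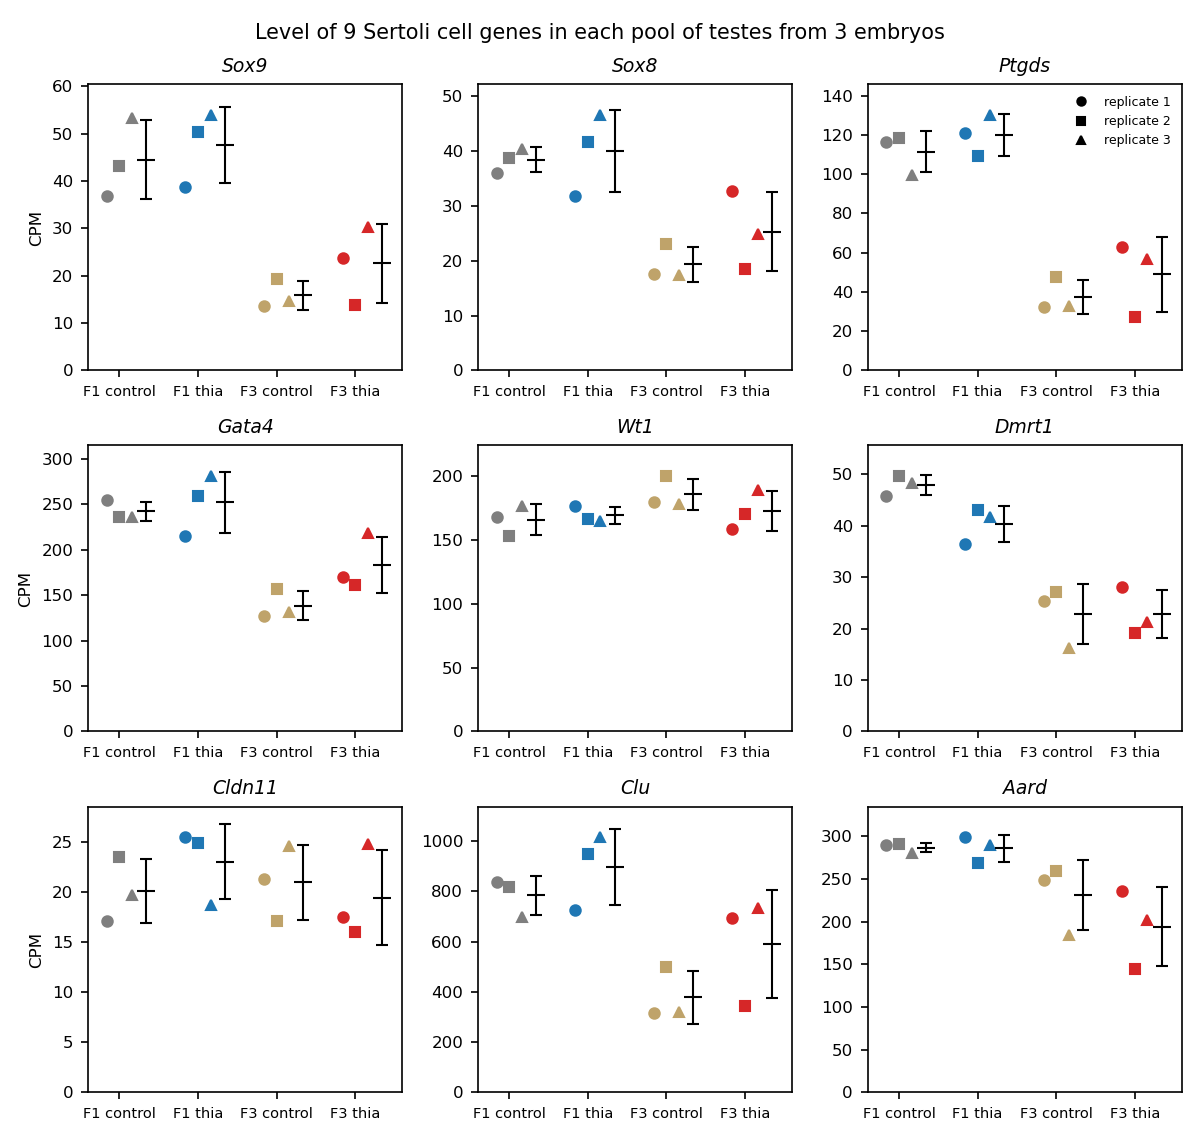
Level of each of the 9 genes in CPM (vertical axis, from 0, TMM scaled) in the 12 pools, by group on the horizontal axis, with one symbol per replicate number and the mean ± SD of the 3 pools beside them. *Sox9*, *Sox8*, *Ptgds*, *Gata4*, *Dmrt1*, *Clu* and *Aard* sit lower in each F3 control pool than in every F1 control pool, while *Wt1* and *Cldn11* do not, and F3 *thia* replicate 2 (square) is the lowest *thia* pool of F3 for every gene but *Wt1*.

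The first comparison asked whether direct exposure in the womb changed these genes in F1. None of the 9 was called by the quasi-likelihood test of edgeR at the study's FDR of 0.15 in F1. That test called 0.0105% of the 19137 genes tested. The study set this FDR for DESeq2, which here called 199 of the 31148 genes with a count. *Dmrt1* was the only one of the 9 with an unadjusted p under 0.05 by edgeR, beside 1677 of the 19137 genes tested. DESeq2 called 0 of the 9. The log2 fold changes of the 9 ran from -0.23 to 0.21 with a median of 0.08, beside a median of 0.01 over all genes tested, and 8 of the 9 were above 0.

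*Sox9* stood at 36.8, 43.3 and 53.4 CPM in the F1 controls and 38.6, 50.3 and 53.9 CPM in F1 *thia*. The ranges coincided almost entirely, and the log2 fold change was 0.12 (SE 0.156, 95% interval -0.23 to 0.46, edgeR adjusted p = 0.812). *Sox8*, its close relative that can partly stand in for it, gave 35.9, 38.8 and 40.5 CPM in controls and 31.8, 41.7 and 46.6 CPM in *thia*. Here the *thia* pools enclosed the control range. *Gata4*, a zinc finger factor that acts beside SOX9 on Sertoli genes, had 255, 236 and 236 CPM in controls and 215, 260 and 281 CPM in *thia*, again spread on both sides of the controls. *Wt1*, a zinc finger factor needed both to form the gonad and to keep Sertoli fate, had 168, 153 and 177 CPM against 177, 166 and 165 CPM, and spanned less over the 6 F1 pools than the other factors.

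*Dmrt1*, a DM domain factor, was the gene with the clearest separation in F1. Its control pools had 45.8, 49.7 and 48.4 CPM and its *thia* pools 36.4, 43.0 and 41.7 CPM. Every *thia* pool lay below every control pool, which was so for 8.45% of all genes tested. The log2 fold change was -0.23 (SE 0.098, 95% interval -0.45 to -0.01), with an unadjusted p of 0.0384 and an adjusted p of 0.556 from edgeR, so it was not called. The germ cell markers, a cell type that also makes DMRT1, summed to 977 to 1308 CPM in F1 controls and 850 to 1019 CPM in F1 *thia*. Of these 10 markers 9 were lower in F1 *thia*, 7 with an unadjusted p under 0.05, and edgeR called 0 of the 10. DESeq2 called 4 of them lower, *Sycp3*, *Ddx4*, *Dazl* and *Nanos3*. Their part in the *Dmrt1* values was not tested.

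The secreted products, the junction gene and *Aard* did not pass the test in F1 either. *Ptgds*, the enzyme that makes prostaglandin D2, had 116, 118 and 99.7 CPM in controls and 121, 109 and 130 CPM in *thia*. *Clu*, which encodes the secreted chaperone clusterin, had 838, 816 and 696 CPM against 725, 948 and 1015 CPM, and its log2 fold change of 0.21 had an adjusted p of 0.647 by edgeR. Both *thia* ranges overlapped the controls. *Cldn11* had 17.1, 23.5 and 19.7 CPM against 25.5, 24.9 and 18.7 CPM, with a log2 fold change of 0.21 and an adjusted p of 0.672 by edgeR. *Aard*, a gene switched on in Sertoli cells as the testis forms, had 289, 291 and 281 CPM in controls and 299, 269 and 290 CPM in *thia*. It was the steadiest of the 9 in F1 controls, where its SD was 1.90% of the mean.

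The second comparison asked whether the genes differed in F3, whose embryos were not exposed themselves. None of the 9 was called by edgeR at the study's FDR of 0.1 in F3. That test called 0% of the 18539 genes tested, although 3906 had an unadjusted p under 0.05. The smallest edgeR adjusted p over all genes was 0.1006, just above the threshold. The study set this FDR for DESeq2, which here called 2288 of the 30715 genes with a count. Only *Gata4*, 1 of the 9, had an unadjusted p under 0.05. By DESeq2, *Gata4* and *Clu*, 2 of the 9, were called higher in *thia*, beside 4.59% of the 30715 genes with a count. That set includes genes too low in counts for the edgeR filter, so its share is not on the same scale as those of edgeR. A single edgeR fit of all 12 libraries called *Gata4* alone, beside 5.87% of genes called higher. The log2 fold changes had a median of 0.39, against 0.00 over all genes, and 5 of the 9 were above 0.

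*Gata4* showed the most even difference in F3. It had 127, 157 and 132 CPM in the controls and 170, 161 and 219 CPM in *thia*. Every *thia* pool was above every control pool, as for 13.4% of all genes tested. The mean was 1.33-fold that of the controls, with a log2 fold change of 0.41 (SE 0.139, 95% interval 0.08 to 0.73, unadjusted p = 0.0208, edgeR adjusted p = 0.166). Its adjusted p was 0.0582 by DESeq2 and 0.0948 in the single fit of 12 libraries, and over all alternatives it ranged from 0.0582 to 0.454.

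*Sox9* had 13.7, 19.4 and 14.6 CPM in F3 controls and 23.7, 13.8 and 30.3 CPM in F3 *thia*. Replicates 1 and 3 of *thia* exceeded every control pool and replicate 2 fell within the control range. The log2 fold change was 0.51 (SE 0.278, 95% interval -0.14 to 1.17, edgeR adjusted p = 0.337). *Sox8* split in the same way, with 17.6, 23.1 and 17.4 CPM in controls and 32.8, 18.4 and 24.8 CPM in *thia*, and its log2 fold change was 0.39 (edgeR adjusted p = 0.342).

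The secreted products followed the same split. *Ptgds* had 32.3, 47.4 and 32.8 CPM in controls and 63.0, 27.4 and 56.5 CPM in *thia*, so that replicate 2 was below all controls and the other *thia* pools above them. *Clu* had 316, 499 and 319 CPM in controls and 694, 342 and 732 CPM in *thia*. Its mean was 1.56-fold that of the controls and its log2 fold change 0.64 (SE 0.304, unadjusted p = 0.0707, edgeR adjusted p = 0.276). DESeq2 gave *Clu* an adjusted p of 0.0985, within a range of 0.0721 to 0.596 over the alternatives.

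The other members showed no such split. *Wt1* had 180, 200 and 178 CPM in controls and 159, 170 and 189 CPM in *thia* (log2 fold change -0.11, edgeR adjusted p = 0.549). *Dmrt1* had 25.3, 27.1 and 16.2 CPM against 28.0, 19.1 and 21.3 CPM, and its log2 fold change rounded to 0.00 with a 95% interval of -0.51 to 0.50. The pools of *Dmrt1*, separate in F1, overlapped in F3. *Cldn11* had 21.3, 17.1 and 24.6 CPM against 17.5, 16.0 and 24.9 CPM, and *Aard* 249, 260 and 184 CPM against 236, 144 and 201 CPM, both with overlapping groups.

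Without F3 *thia* replicate 2, 3 of the 9 genes were called higher in *thia* by edgeR, beside 4.23% of the 18974 genes tested. These were *Clu* with a log2 fold change of 0.92 (SE 0.192, adjusted p = 0.0721), *Sox9* with 0.77 (SE 0.177, adjusted p = 0.0804) and *Ptgds* with 0.67 (SE 0.166, adjusted p = 0.0870). Over all alternatives the adjusted p of *Sox9* ranged from 0.0804 to 0.701 and that of *Ptgds* from 0.0870 to 0.795. *Sox8* and *Gata4* were not called, at adjusted p of 0.112 and 0.107. In the remaining *thia* pools these 5 genes lay above every F3 control pool, a pattern shared by 20.3% of all genes tested. Since replicate 2 held the lowest *thia* value for every gene but *Wt1*, leaving it out raises these means by construction, and leaving out any other F3 pool called 0 of the 9.

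**Figure D2:**
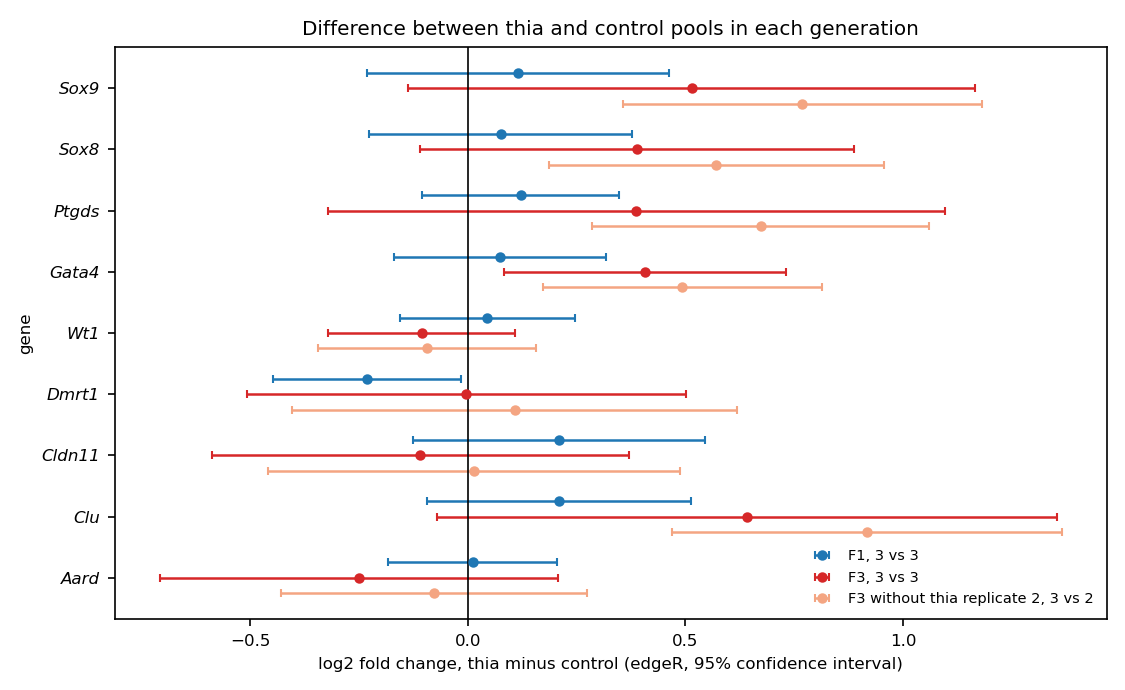
Log2 fold change of each gene (horizontal axis, *thia* minus control, with 95% confidence intervals from edgeR) in F1, in F3 and in F3 without *thia* replicate 2, with the genes on the vertical axis. In F3 the interval of *Gata4* alone, 0.08 to 0.73, leaves out 0, and without replicate 2 those of *Sox9*, *Sox8*, *Ptgds*, *Gata4* and *Clu* do.

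Markers of other cell types also varied between the F3 pools. In F3 *thia* replicates 1, 2 and 3 the erythroid sum was 19438, 39178 and 20138 CPM, against 27194 to 30235 CPM in the F3 controls, so replicate 2, the *thia* pool low in Sertoli genes, had the highest sum of the F3 pools. It also had the highest smooth muscle sum, 873 CPM against 784 and 711 CPM in *thia* replicates 1 and 3, and the highest of the *thia* pools for skeletal muscle, 188 against 81.0 and 85.9 CPM, and for macrophage markers, 166 against 105 and 123.3 CPM. Of the 4 erythroid markers 0 were called in F3 by edgeR or DESeq2 and 0 had an unadjusted p under 0.05, and without *thia* replicate 2 edgeR called 2, *Hba-a1* and *Alas2*, lower in *thia*. The 6 fetal Leydig markers summed to 3842 to 6971 CPM in F3 *thia* and 2191 to 3621 CPM in F3 controls, and all 6 were higher in *thia*, 3 with an unadjusted p under 0.05. Of these 6, edgeR called 0 and DESeq2 called 3, and without *thia* replicate 2 edgeR called 4. The 6 endothelial markers were all higher too, at 221 to 267 CPM against 148 to 169 CPM, with 5 at an unadjusted p under 0.05. Of these, edgeR called 0 and DESeq2 called 4, *Pecam1*, *Tek*, *Flt1* and *Cdh5*, and edgeR called the same 4 without *thia* replicate 2. Over all genes, DESeq2 called 4.59% higher in *thia*, and edgeR without *thia* replicate 2 called 4.23% higher. The 10 germ cell markers summed to 417 to 718 CPM in *thia* and 596 to 891 CPM in controls, and 9 of them were lower, 3 with an unadjusted p under 0.05. EdgeR called 0 of the 10 and DESeq2 called 1, *Nanos3*, lower. None of the erythroid, Leydig, endothelial and germ cell markers was at 0 in any pool. The part of these cell types in the values of the 9 genes was not tested.

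**Figure D3:**
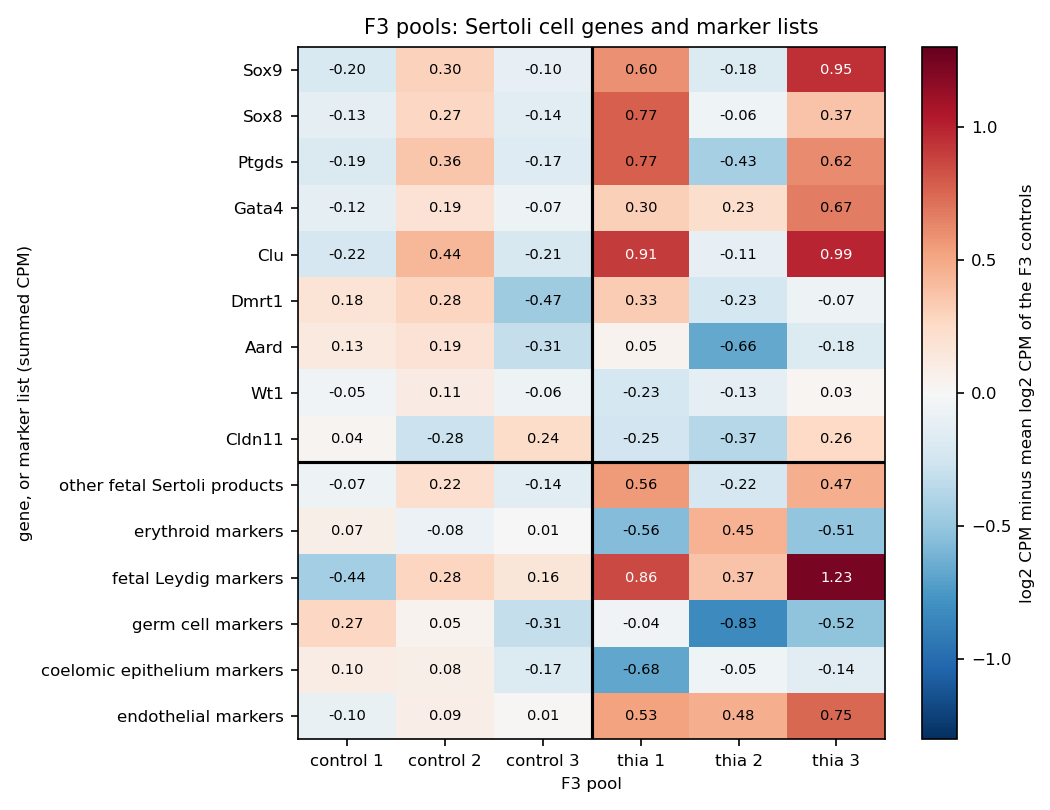
Log2 CPM of the 9 genes (upper rows) and of the summed marker lists (lower rows) in the 6 F3 pools, each minus the mean log2 CPM of the 3 F3 controls, with red above and blue below that mean. *Sox9*, *Sox8*, *Ptgds* and *Clu* are red in *thia* 1 and 3 and blue in *thia* 2, and the erythroid sum has the opposite colours, from -0.56 in *thia* 1 to 0.45 in *thia* 2.

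The difference between the F3 and the F1 effect of *thia* was tested in one fit of the 12 libraries. It was not called for any of the 9 genes by edgeR at an FDR of 0.1, where 0.0051% of 19626 genes were called, and neither an unadjusted p under 0.05 (0 of the 9) nor a call by DESeq2 (0 of the 9) was seen. The smallest p was that of *Gata4*, with a difference of 0.35 (unadjusted p = 0.0821, edgeR adjusted p = 0.408). The F3 effect of *Sox9* exceeded the F1 effect by 0.42 with a 95% interval of -0.33 to 1.16, and that of *Clu* by 0.45 with an interval of -0.33 to 1.23. That of *Dmrt1* exceeded it by 0.24 with an interval of -0.30 to 0.78. Without F3 *thia* replicate 2, the lowest *thia* pool for these 2 genes, the differences rose to 0.67 for *Sox9* and 0.72 for *Clu*. EdgeR still called 0 of the 9, with 5 at an unadjusted p under 0.05, beside 3155 of the 20163 genes tested.

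The largest contrast for these genes was between the generations. In the control pools 6 of the 9, *Sox9*, *Sox8*, *Ptgds*, *Gata4*, *Dmrt1* and *Clu*, were lower in F3 than in F1 by edgeR at an FDR of 0.1, beside 22.4% of the 19626 genes tested, and 0 were higher, beside 19.9%. DESeq2 called the same 6. The median log2 fold change of the 9 was -0.99, against -0.02 over all genes tested. With upper quartile scaling the calls over all genes shifted from 3912 higher and 4388 lower to 5016 higher and 3229 lower, and the 6 genes were still called lower. F1 and F3 were collected as separate generations, and mothers of F1 controls were given oil by gavage while those of F3 controls were untreated. Whether the generations were sequenced together is not stated. Generation, gavage, time of collection and sequencing cannot be told apart here.

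*Ptgds* fell the most, from 112 ± 10.3 CPM in F1 controls to 37.5 ± 8.60 CPM in F3 controls (SD, n = 3). This was 2.98-fold lower, with a log2 fold change of -1.57 (SE 0.247, edgeR adjusted p = 0.000773). *Sox9* fell from 44.5 ± 8.34 to 15.9 ± 3.06 CPM, which was 2.80-fold lower, with a log2 fold change of -1.48 (SE 0.249, edgeR adjusted p = 0.00109). Both genes of this prostaglandin and SOX9 pair were thus down by more than any other member. *Dmrt1* fell from 47.9 ± 1.97 to 22.9 ± 5.88 CPM and *Clu* from 783 ± 76.7 to 378 ± 105 CPM, with edgeR adjusted p of 0.00105 and 0.00866. *Sox8* fell from 38.4 ± 2.29 to 19.3 ± 3.23 CPM and *Gata4* from 242 ± 10.9 to 138 ± 16.1 CPM, with edgeR adjusted p of 0.00265 and 0.00092. For these 6 genes and for *Aard* each F3 control pool lay below each F1 control pool, as for 25.5% of all genes.

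The other 3 did not pass the test. *Wt1* was 166 ± 12.2 CPM in F1 controls and 186 ± 12.3 CPM in F3 controls, higher in each F3 pool, with a log2 fold change of 0.16 and an edgeR adjusted p of 0.171. It was called higher under upper quartile scaling alone, at an adjusted p of 0.0376 in a range of 0.0376 to 0.445. *Cldn11* was 20.1 ± 3.22 and 21.0 ± 3.73 CPM, with a log2 fold change of 0.06 and a 95% interval of -0.36 to 0.48. *Aard* was 287 ± 5.44 and 231 ± 41.1 CPM (log2 fold change -0.31, edgeR adjusted p = 0.15). It was called lower when F3 *thia* replicate 1 or replicate 2 was left out of the shared fit, at adjusted p of 0.0764 and 0.0577, and, in a fit added after seeing the data, of the 6 control pools alone, at 0.0889, within a range of 0.0577 to 0.461.

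Several cell types differed between the same control pools, where 22.4% of all genes tested were called lower in F3 and 19.9% higher. All 4 erythroid markers were called higher in F3 controls, and their sum was 2037 to 6926 CPM in F1 controls and 27194 to 30235 CPM in F3 controls. All 4 coelomic epithelium markers, *Upk3b*, *Krt19*, *Msln* and *Aldh1a2*, were called higher as well, summing to 263 to 331 CPM in F1 controls and 592 to 715 CPM in F3 controls. This surface layer also makes WT1 and GATA4, of which *Wt1* was not called and *Gata4* was lower. All 5 macrophage markers were called higher, at 52.2 to 61.6 and 104 to 170 CPM. Of the 10 germ cell markers 6 were called lower, at 977 to 1308 and 596 to 891 CPM, and of the 6 endothelial markers 5 were called lower. The part of these cell types in the fall of the 6 genes was not tested.

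Other genes of the Sertoli cell stood beside the members. Of 21 other fetal Sertoli products, 16 were called lower in F3 controls than in F1 controls and 0 higher. Over all genes tested 22.4% were called lower and 19.9% higher. The median log2 fold change of the 21 was -0.77. *Amh*, which encodes anti-Müllerian hormone, changed by -1.75 (SE 0.289, edgeR adjusted p = 0.00102), *Col9a3*, a collagen chain, by -1.34, and *Gdnf*, a growth factor for spermatogonia, by -1.03. Of 19 tested partners in sex determination, 10 were called lower and 4 higher. *Gadd45g* and *Map3k4*, members of the kinase cascade that switches on *Sry*, changed by -1.70 and -0.88, and *Gata6*, the relative of *Gata4*, by 0.69. *Sry* itself, which is active only in the early gonad, had at most 2 counts in a library and was not tested.

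Junction genes were mixed. Of 13, 7 were called lower and 3 higher in F3 controls, with *Gja1*, the gap junction protein connexin 43, at -1.0, *Cdh2*, N-cadherin, at -0.43 and *Jam3*, a junctional adhesion molecule, at 0.25. Beside 19.9% higher and 22.4% lower over all genes tested, 3 of 9 genes of the ovarian pathway were called higher and 0 lower. These were *Foxl2*, the factor that holds ovarian fate, at 1.82 (SE 0.583), *Rspo1*, an activator of WNT signalling, at 1.37, and *Fst*, which encodes follistatin, at 1.03. *Foxl2* was at low levels throughout, with 0.476, 0.459 and 0.704 CPM in F1 controls and 2.54, 0.566 and 2.58 CPM in F3 controls. Its groups overlapped, since F3 control replicate 2 was as low as the F1 pools. In F3 *thia* it had 1.27, 2.59 and 5.32 CPM, with replicate 3 the highest of all pools.

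**Figure D4:**
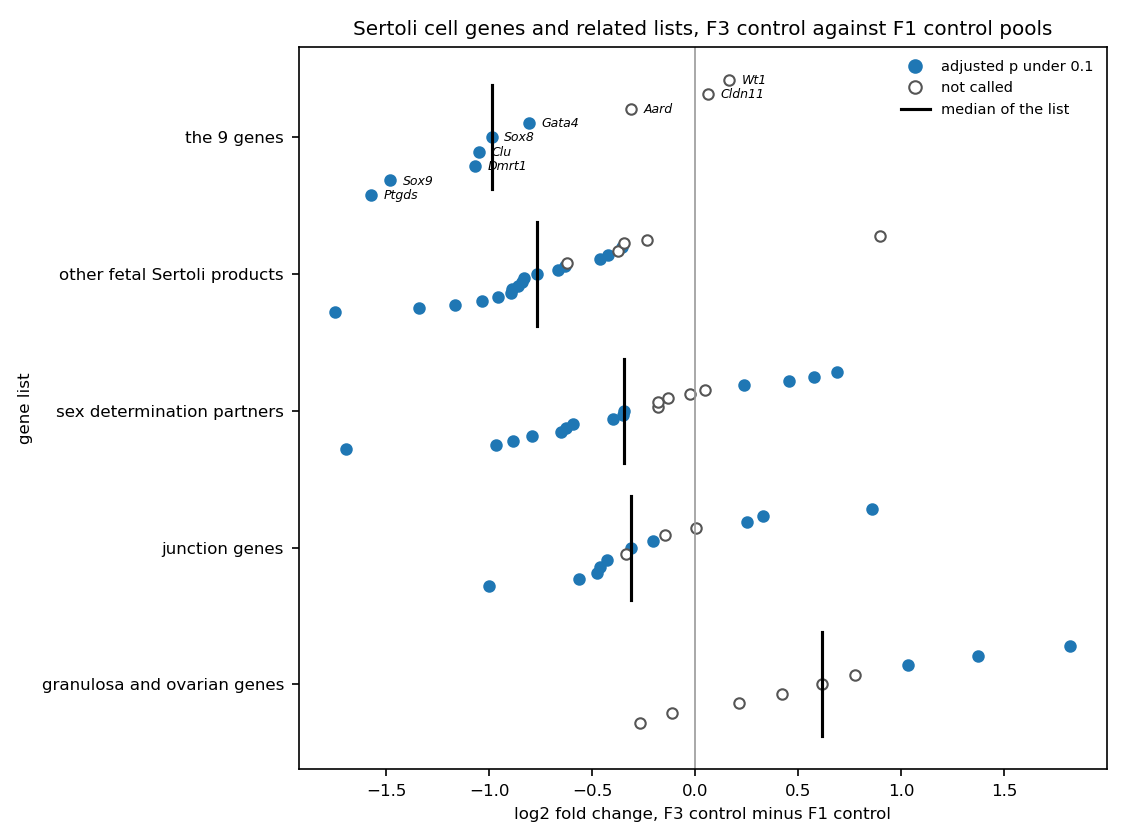
Log2 fold change between F3 control and F1 control pools (horizontal axis) for each gene of 5 lists (vertical axis), with filled points for genes called by edgeR at an FDR of 0.1, open points for the others and a bar at the median of each list. The 9 genes have a median of -0.99 and the other fetal Sertoli products one of -0.77, whereas the ovarian genes have one of 0.62.

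The *thia* comparisons of these lists followed those of the 9 genes. In F1 0 genes of the 4 lists were called by edgeR. *Six4*, a homeobox factor upstream of *Sry*, was lower in every *thia* pool with a log2 fold change of -0.72 (unadjusted p = 0.000488, edgeR adjusted p = 0.359), and DESeq2 called it alone of these lists. Unadjusted p under 0.05 were seen for 1 of 21 other Sertoli products, *Tesc* at 0.42, for 2 of 19 partners, *Six4* and *Nr0b1*, for 2 of 9 ovarian genes, *Bmp2* and *Foxl2*, and for 0 of 13 junction genes.

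In F3 0 genes of the 4 lists were called by edgeR either, with adjusted p no lower than 0.118. Of 21 other Sertoli products 18 were higher in *thia*, with a median log2 fold change of 0.29, and 5 had an unadjusted p under 0.05. *Inha*, the inhibin alpha subunit, was above the controls in every *thia* pool at 0.89 (SE 0.230, edgeR adjusted p = 0.118), *Pdgfa*, a ligand of interstitial cells, at 0.32 (edgeR adjusted p = 0.125), and *Inhbb*, an activin subunit, overlapped at 0.66. Among the partners the insulin receptor *Insr* at 0.50, *Igf1r* at 0.45 and *Nr5a1*, the receptor that acts with SRY on *Sox9*, at 0.52 were higher in every *thia* pool. Among junction genes *Ocln*, occludin, had 0.45, *Gja1* 0.69 and *Cldn5*, claudin 5, 0.34. DESeq2 called 4 of 21 Sertoli products higher, *Inha*, *Inhbb*, *Fshr* and *Pdgfa*, together with 3 of 19 partners, all higher, and 1 of 9 ovarian genes, *Bmp2*, higher. Over all genes with a count DESeq2 called 4.59% higher. Of the 13 junction genes it called *Gja1*, *Ocln* and *Cldn5*, 3 in all, higher and 1, *Cldn3*, a claudin, lower at -0.87. Without F3 *thia* replicate 2, edgeR called 9 of 21 Sertoli products higher, *Amh* among them, and 0 lower, beside 4.23% of all genes tested higher. In that fit 2 of 19 partners were called higher and 1 lower, 2 of 13 junction genes higher, and 0 of 9 ovarian genes.

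Beyond group means, the genes differed in how they varied from pool to pool. With the mean of each generation removed, *Clu* and *Ptgds* had a Pearson's r of 0.91 and a Spearman's rho of 0.86 over the 12 libraries, *Sox8* and *Clu* 0.87 and 0.91, *Sox9* and *Clu* 0.87 and 0.87, and *Sox9* and *Sox8* 0.83 and 0.91. With the 2 libraries farthest from the median of the first gene left out, Pearson's r for *Ptgds* with *Clu*, *Sox8* with *Clu*, *Sox9* with *Clu* and *Sox9* with *Sox8* was 0.91, 0.82, 0.76 and 0.90. Leaving them out lowered *Sox9* with *Gata4* from 0.80 to 0.55, *Sox9* with *Ptgds* from 0.76 to 0.67 and *Sox8* with *Ptgds* from 0.80 to 0.64. It raised *Sox8* with *Gata4* from 0.68 to 0.75 and *Ptgds* with *Gata4* from 0.61 to 0.84. Of the 36 pairs 8 had an r above 0.7, all among *Sox9*, *Sox8*, *Ptgds*, *Gata4* and *Clu*, and the median was 0.27. *Wt1* and *Cldn11* were near 0 with the mean of the other 8, at -0.002 and -0.095. With the mean of each group removed instead, the same 8 pairs kept an r above 0.7, from 0.72 to 0.92. *Wt1* and *Cldn11* had 0.17 and -0.057 with the mean of the other 8. Pairs with *Aard* or *Dmrt1* also passed 0.7 in that setting. Then *Ptgds* and *Aard* had 0.84, *Dmrt1* and *Aard* 0.82, *Sox8* and *Dmrt1* 0.73 and *Clu* and *Aard* 0.72. *Gata4* had 0.53 with *Sox8* and 0.54 with *Ptgds*. The correlations also differed between the generations. Over the 6 pools of F1 and the 6 of F3, *Sox9* and *Ptgds* had an r of -0.26 and 0.92, *Sox9* and *Clu* 0.33 and 0.97, and *Ptgds* and *Gata4* 0.29 and 0.66. *Sox9* and *Sox8* had 0.86 in F1 and 0.82 in F3, and *Gata4* and *Clu* 0.89 and 0.85. *Dmrt1* and *Aard* had -0.34 in F1 and 0.80 in F3. The points share the library, its depth and its mix of cells, and these values are a description.

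**Figure D5:**
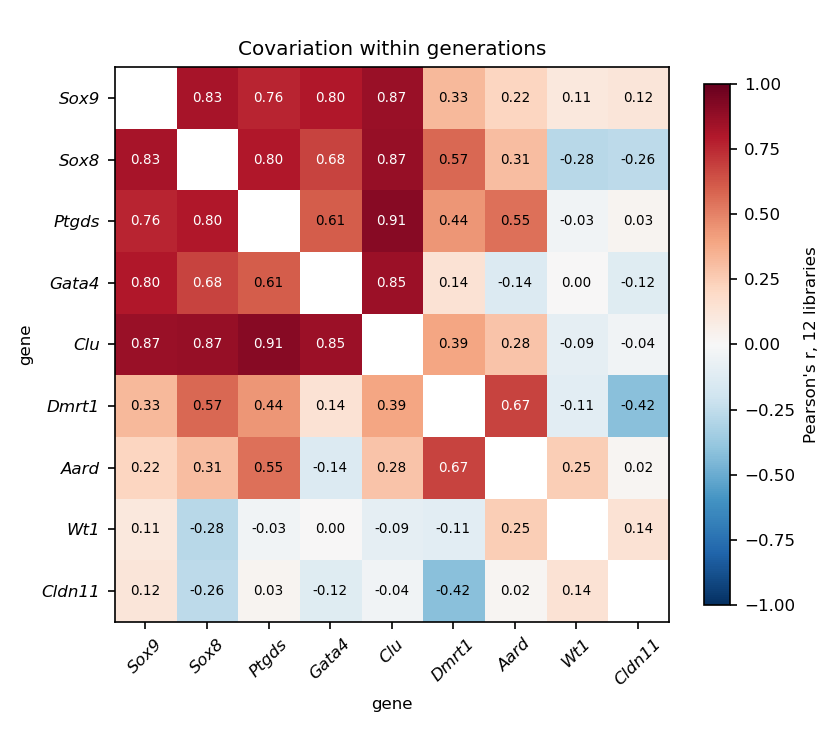
Pearson's r of log2 CPM between each pair of the 9 genes (both axes) over 12 libraries after the mean of each generation was removed, on a scale from -1 in blue to 1 in red. *Sox9*, *Sox8*, *Ptgds*, *Gata4* and *Clu* form a block between 0.61 and 0.91, which pools F1 and F3 although *Sox9* and *Ptgds* had an r of -0.26 in F1 and 0.92 in F3, and *Wt1* and *Cldn11* lie between -0.42 and 0.25 with every other gene.

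With the mean of each generation removed, the genes most like the mean z-score of the 9 members over the 12 libraries, among 19617 others, were *Dhh* with r = 0.95, *Sema7a* with 0.94, *Itga6* with 0.93, *Retnlb* with 0.92 and *Ppt1* with 0.91, and 131 had an r above 0.8. *Dhh*, desert hedgehog, is a Sertoli signal, and averaged 105 CPM in F1 controls, 111 in F1 *thia*, 58.1 in F3 controls and 73.0 in F3 *thia*. *Itga6*, an integrin subunit that binds laminin of the basement membrane, averaged 217, 210, 98.2 and 136 CPM in the same order. *Retnlb* averaged at most 0.379 CPM in a group, so its likeness rests on few counts. The genes most like *Sox9* were *Gas7* with r = 0.93, *Gja1* with 0.93 and *Msi1*, an RNA-binding protein, with 0.92. *Msi1* averaged 49.7 CPM in F1 controls and 15.2 CPM in F3 controls, and *Gja1* 285 and 142 CPM.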

How the data were processed

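Total RNA of pooled embryonic testes was made into strand-specific libraries with the NEBNext Ultra II Directional kit. Per the submitters' processing notes and the study's methods, the authors used bcl2fastq 2.20.0.422, mapped reads to mm10 with HISAT2 2.1.0 and counted them per gene symbol with featureCounts. Each deposited file holds the raw count of one library for 35976 symbols, not normalized, and 0 rows name no gene. The study mapped in paired-end mode with reverse strand and counted over the UCSC refGene annotation of mm10. Other counting options, including the strand setting of the counting, are not given in the sources used here.

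The analysis was run in R 4.3.3 (edgeR 4.0.16, DESeq2 1.42.0). Genes were kept by filterByExpr at a minimum count of 10 and libraries were scaled by TMM. Each generation was fitted on its own 6 libraries with glmQLFit, and *thia* was tested against control with glmQLFTest of edgeR. P-values were adjusted by Benjamini-Hochberg over all genes tested, and the FDR thresholds were those of the study, 0.15 for F1 and 0.1 for F3. The study set these thresholds for DESeq2, which is used here as an alternative. The difference of the effects and the contrast of the F3 and F1 controls came from one fit of 4 group means over 12 libraries, with a threshold of 0.1. With 3 against 3 pools an exact permutation test of one gene cannot go below p = 0.1, so none was used. Log2 CPM for covariation used a prior count of 2. Gene lengths came from GENCODE M21, which is not the refGene annotation used for counting, and promoter windows from RefSeq. The same-numbered control and *thia* pools were treated as unpaired. Scripts were tested on simulated data.

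The 9 genes and all gene lists were chosen with earlier results of these data known, so no list was tested as a set. A gene in each of 2 lists is not reported here and was left out of their counts and sums. Named are the 9 genes, up to 3 genes per list with the smallest p in each comparison, and the genes most like the members or *Sox9*. Genes that DESeq2 called, *Amh* in F3, *Foxl2* in F3 *thia* and marker genes were named after their values were seen. Alternatives were the Wald test of DESeq2, its size factors in edgeR, scaling by upper quartile, unfiltered genes, a minimum of 10 counts in all libraries, bias-adjusted deviances, a replicate block, both generations in one fit, an FDR of 0.05, each library left out in turn and CPM without TMM. A fit of the 6 control libraries alone was added after seeing the data.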

Additional observations from a re-analysis of the deposited data

How the results depend on the processing

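The numbers shared by control and *thia* pools were not taken as a pairing. Over genes, the deviations of same-numbered pools from their group means had an r of -0.04, -0.04 and 0.03 in F1 and 0.19, -0.37 and -0.24 in F3. Pools of unlike number had -0.37 to 0.46 in F3, and with 3 pools a group these values cannot show whether pools were paired. With the replicate block 0 of the 9 genes were called in F1, in F3 or in the difference between them. In F3 the 0 genes called became 2 with DESeq2 and 1 in the single fit of 12 libraries, and 0 to 3 when a pool was left out, the 3 without *thia* replicate 2. The counts of the 9 genes called in F1, in the difference between generations and between the controls of F3 and F1 stayed at 0, at 0 and at 6 or 7 under every alternative run. Over all genes, the 2 calls in F1 became 243 with no filter, 199 with DESeq2 and 0 to 20 with a pool left out. The 0 calls in F3, where the smallest edgeR adjusted p was 0.1006, became 2288 with DESeq2 and 1936 in the single fit. They became 569 with no filter, 520 with upper quartile scaling, 333 with 10 counts in every library and 81 with bias-adjusted deviances. With a pool left out they were 0 to 1294, the highest without *thia* replicate 2. The 1 call for the difference became 634 with DESeq2. Values of the 9 genes kept direction and call in 118 of 126 cases in F1, 110 of 126 in F3, 171 of 171 for the difference and 165 of 171 between controls, and 65 of 72 levels moved by less than 1 SD, the other 7 moving further with CPM without TMM. Values near 0 changed sign. *Dmrt1* in F3 became 0.0075 with DESeq2, 0.0072 with DESeq2 size factors, 0.014 with no filter and 0.013 with the replicate block, and *Aard* in F1 became -0.0045 in the single fit of 12 libraries. With one pool left out, log2 fold changes in F1 ranged from -0.0051 to 0.26 for *Sox9*, -0.052 to 0.22 for *Sox8*, -0.014 to 0.17 for *Gata4*, -0.012 to 0.091 for *Wt1* and -0.022 to 0.054 for *Aard*. In F3 they ranged from -0.20 to 0.12 for *Dmrt1* and -0.33 to 0.029 for *Cldn11*, and between the controls from -0.070 to 0.19 for *Cldn11*. The cause of these changes was not tested. With 3 pools a group, the 95% intervals in F3 held both 0 and a log2 fold change of 1 for *Sox9* and for *Clu*.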
